A study of Capra hircus with 6 samples.

Results

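Circular RNAs from 6 genes of glycogen, creatine and glucose handling were followed in goat back muscle between fetal life and birth: PHKA1, PHKB, GYG2, PGM5, CKM and TBC1D4. The genes were chosen by name from the host gene column of the deposited circRNA list. Entries listed under a gene number were added where they lay on the same sequence and strand within the span of the named entries, allowing 1 base. This gave 78 of 25500 listed entries. Entries that start 1 base apart and share an end were then added together, leaving 75 of 23980 circRNAs, from 6 of 6418 host genes and with 1299 of 319901 back-splice reads.

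The samples were longissimus dorsi muscle of Haimen goats, a group of 3 libraries from fetuses at day 75 of gestation (fetus) and a group of 3 from kids at day 1 (kid). No allele, agent or treatment is given for either group, and neither sex nor litter is named in the labels. Ribosomal RNA was removed and linear RNA was digested with RNase R before strand-marked libraries were made, so the libraries were enriched for circular RNA. Whether every back-splice read came from a circle was not tested. The comparison asks which circRNAs differ between the stages. The labels do not say that the libraries of a stage came from separate animals, so a p-value here speaks of the spread between libraries, which may be technical.

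A circular RNA forms when the end of a downstream exon is spliced back to the start of an upstream exon, and reads across that back-splice junction count it. Muscle stores glucose as glycogen, which glycogenin starts as a short primer on itself and glycogen synthase and branching enzyme extend. Phosphorylase kinase, an assembly of alpha, beta, gamma and delta subunits that responds to calcium, switches on glycogen phosphorylase and so starts glycogen breakdown. Creatine kinase passes phosphate between creatine and ATP next to the contractile machinery. Glucose enters the fibre through transporters that insulin and contraction bring to the surface, a step that TBC1D4 holds back until it is phosphorylated. The level of a circRNA is not the level of the messenger RNA or the protein of its host gene.

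The libraries held 36484, 33222 and 56467 back-splice reads in fetus and 77111, 42695 and 73922 in kid. Fetus 1 and fetus 2 stood apart in read quality: 70.7% and 69.1% of their raw reads were kept after trimming, against 87.0% in fetus 3 and 84.0% to 87.9% in kid. For the 6 genes the host gene result is therefore also given with only fetus 3 set against kid. That fit has a single fetal library whose spread is assumed to be like that of kid. Other host genes named below are given without it. Levels are counts scaled to 1000000 back-splice reads (CPM) with TMM scaling, shown as mean ± SD with n = 3 for each stage. Changes are log2 of kid over fetus ± SE from edgeR's quasi-likelihood test, with Benjamini-Hochberg adjustment over all 1755 host genes tested (at least 5 reads in at least 3 libraries), and 0.05 was the threshold. Over all tested host genes the median change was 0.05 and 340 passed (19.4%), 209 higher in kid (11.9%) and 131 lower (7.46%). Scaled to total reads without TMM the median change was -0.21 and the split became 135 higher and 206 lower. In none of the 6 genes did the direction change under either scaling or with valid reads as library sizes. Of the defining genes of the tissue, 7 of 11 skeletal muscle fibre markers had circRNA reads, while MYH1, MYH2, MYH3 and MYH7 had none.

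All 6 host genes passed the filter and the test. Summed over their circRNAs, PHKA1, PHKB and CKM were higher in kid and GYG2, PGM5 and TBC1D4 were lower. PHKA1 and CKM reached the read filter through the kid libraries alone, so passing the filter and passing the test are not separate observations for them. In all 6 the fetal and kid CPM values kept apart without overlap, a pattern that 37.2% of all tested host genes showed. The genes were listed with earlier results of these data known, so these counts describe the 6 genes and are no evidence about glycogen or glucose handling as a whole. In whole muscle, fewer cells of a type and less RNA per cell cannot be told apart. The summed circRNA level of the muscle fibre markers was 4252 to 4439 CPM in the fetal libraries and 11032 to 13948 CPM in the kid libraries. Of the 5 tested, 2 were higher in kid: NEB (mean 1062 CPM in fetus and 6568 in kid) and ATP2A1 (885 and 3035). The other 3 did not pass: TTN (1814 and 2303, edgeR adjusted p = 0.267), RYR1 (506 and 790, 0.153) and MYH8 (60.5 and 97.4, 0.637). The summed level of 8 fibroblast and connective tissue markers, of which 7 had reads, stood at 368 to 549 CPM in fetus and 55.6 to 378 CPM in kid. The single myogenic precursor marker with reads, PAX7, had 48.0 to 224 CPM in fetus and 0 to 13.9 in kid, and 5 nerve and Schwann cell markers summed to 79.9 to 125 against 0 to 54.0. DCN was at 0 in every library, and POSTN, with 35 reads in fetus and none in kid, held 35 of the 63 fetal reads of the list. Without POSTN the list had 28 reads in fetus and 26 in kid (24.9 to 334 against 55.6 to 378 CPM), and COL1A1 had 5 and 14. The part of these cell types in the 6 results was not tested.

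**Figure D1:**
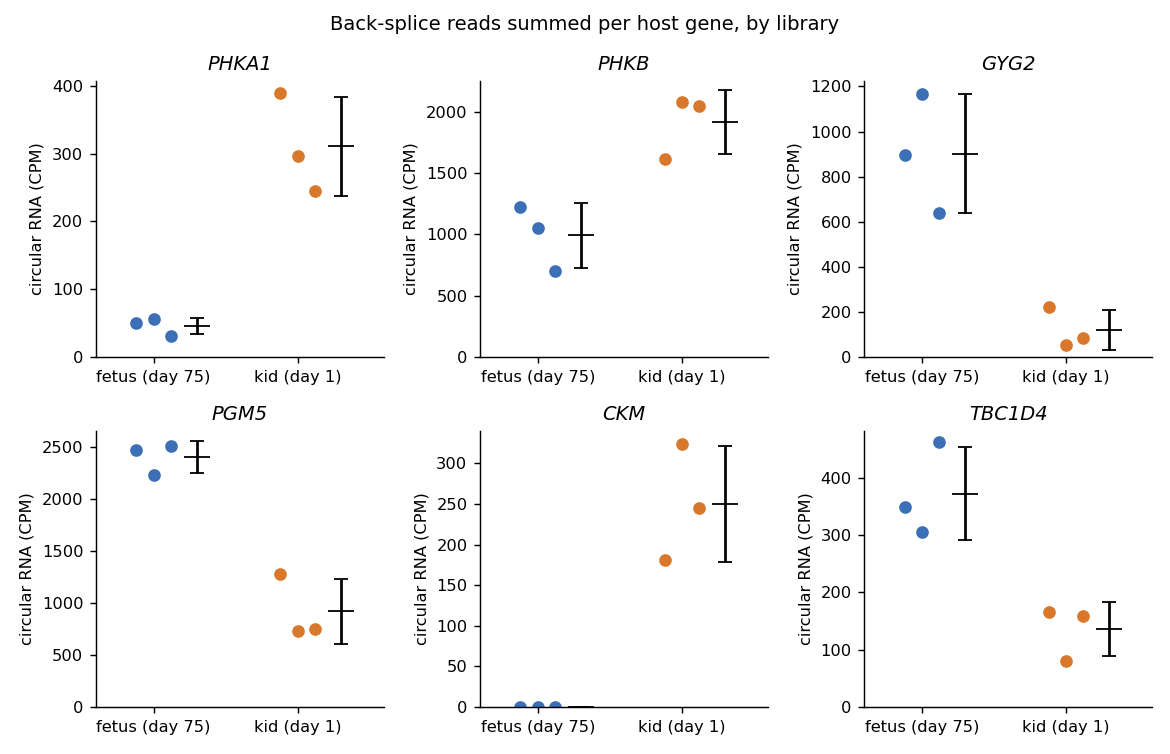
CircRNA level of the 6 host genes (CPM, vertical axis from 0) in each fetal (blue, left to right 1 to 3) and kid (orange, 1 to 3) library, with the stage mean and SD in black. The points of the stages do not overlap in any panel, and all 3 fetal libraries of CKM lie at 0.

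For phosphorylase kinase, circRNA of the muscle alpha and of the beta subunit gene was higher in kid. PHKA1 encodes the muscle form of the regulatory alpha subunit. The gene had 2, 2 and 2 reads in the fetal libraries and 28, 11 and 17 in the kid libraries, from 10 circRNAs on chromosome X (minus strand). In CPM this was 49.9, 55.6 and 32.0 in fetus and 389, 297 and 245 in kid, or 45.8 ± 12.3 against 311 ± 72.7. The lowest kid library stood above the highest fetal library by a wide margin, although the fetal values rest on 6 reads in all. The log2 fold change was 2.76 ± 0.62 (edgeR adjusted p = 0.00351). The ratio of pooled CPM was 7.26, with an exact 95% interval of 3.13 to 20.6 that covers counting error only. With fetus 3 alone the change was 3.20 ± 0.86 and did not pass (edgeR adjusted p = 0.0563).

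The kid reads of PHKA1 were spread over several circles. The kid libraries held 6, 5 and 6 of its circRNAs and the fetal libraries 1, 2 and 1, where 2 reads a library allow at most 2. No single PHKA1 circRNA reached the read filter, so none was tested. The circRNA with the most reads joined exons 11 to 13 (283 bases, chrX:9475752-9480851 in the coordinates of the files, whose build the sources used here do not give). It had 0, 1 and 2 reads in fetus and 10, 4 and 3 in kid, and in CPM each kid library was above each fetal one. A circRNA of exons 24 to 25 (209 bases) followed with 2, 0 and 0 reads against 8, 1 and 7. Here kid 2 was below fetus 1 in CPM. The other 8 had 1 to 7 reads each, 7 of them in kid only and 1, of exons 22 to 27, in fetus only with 1 read. The circles were spread from exon 4 to exon 27, and no first exon held most of the kid reads: exon 11 started 32.1% and exon 24 started 28.6%.

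PHKB encodes the beta subunit, the other regulatory subunit, which is shared by the muscle and liver enzymes. Its 15 circRNAs on chromosome 18 (minus strand) had 49, 38 and 44 reads in fetus and 116, 77 and 142 in kid. The CPM values were 1222, 1056 and 703 in fetus and 1612, 2080 and 2051 in kid, or 994 ± 265 against 1914 ± 262. Fetus 3 was the lowest library and kid 1 the lowest of its stage, still above fetus 1. The log2 fold change was 0.96 ± 0.25 (edgeR adjusted p = 0.0106), and with fetus 3 alone 1.44 ± 0.37 (edgeR adjusted p = 0.0484). The call rested on the scaling and on fetus 3: the change was 0.70 without TMM (edgeR adjusted p = 0.0579), 0.95 with valid reads as library sizes (adjusted p = 0.104) and 0.74 without fetus 3 (adjusted p = 0.0689).

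Most PHKB reads came from circles that started at exon 2. The 6 circRNAs with the boundary of that exon held 110 of 131 reads in fetus (84.0%) and 269 of 335 in kid (80.3%). Of these, 5 ended at exon 6, 7, 8, 13 or 26 and 1, with 2 reads in kid 3, has no exon list, so a common back-splice acceptor was joined to several donors. The circRNA of exons 2 to 6 (515 bases, chr18:21369117-21391742) was the most abundant in both stages, with 31, 23 and 23 reads in fetus and 50, 49 and 81 in kid. Its CPM of 790, 630 and 378 in fetus overlapped with 703, 1260 and 1171 in kid, because kid 1 fell below fetus 1. Its change of 0.81 ± 0.33 did not pass (edgeR adjusted p = 0.124 over 1960 circRNAs tested).

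Of the other PHKB circRNAs, that of exons 12 to 13 (237 bases) had 5, 2 and 7 reads in fetus and 19, 12 and 18 in kid. Its CPM of 127, 54.8 and 115 in fetus and 267, 309 and 260 in kid did not overlap, and its change of 1.43 ± 0.47 did not pass (edgeR adjusted p = 0.0628). The circRNA of exons 2 to 7 had 8, 4 and 10 reads in fetus and 25, 5 and 25 in kid, with kid 2 among the fetal libraries in CPM (0.85 ± 0.49, edgeR adjusted p = 0.272). The circRNA of exons 2 to 8 had 0, 6 and 3 reads against 5, 2 and 9 (0.34 ± 0.97, edgeR adjusted p = 0.871), and leaving out fetus 1 or kid 3 turned its direction. No unequal change among the 4 tested PHKB circRNAs was called (edgeR diffSpliceDGE adjusted p = 0.868). Below the filter, the circRNA of exons 2 to 13 had 2, 0 and 0 reads in fetus and 6, 3 and 6 in kid. Its pooled CPM ratio was 5.71, with an exact 95% interval of 1.33 to 51.5.

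**Figure D2:**
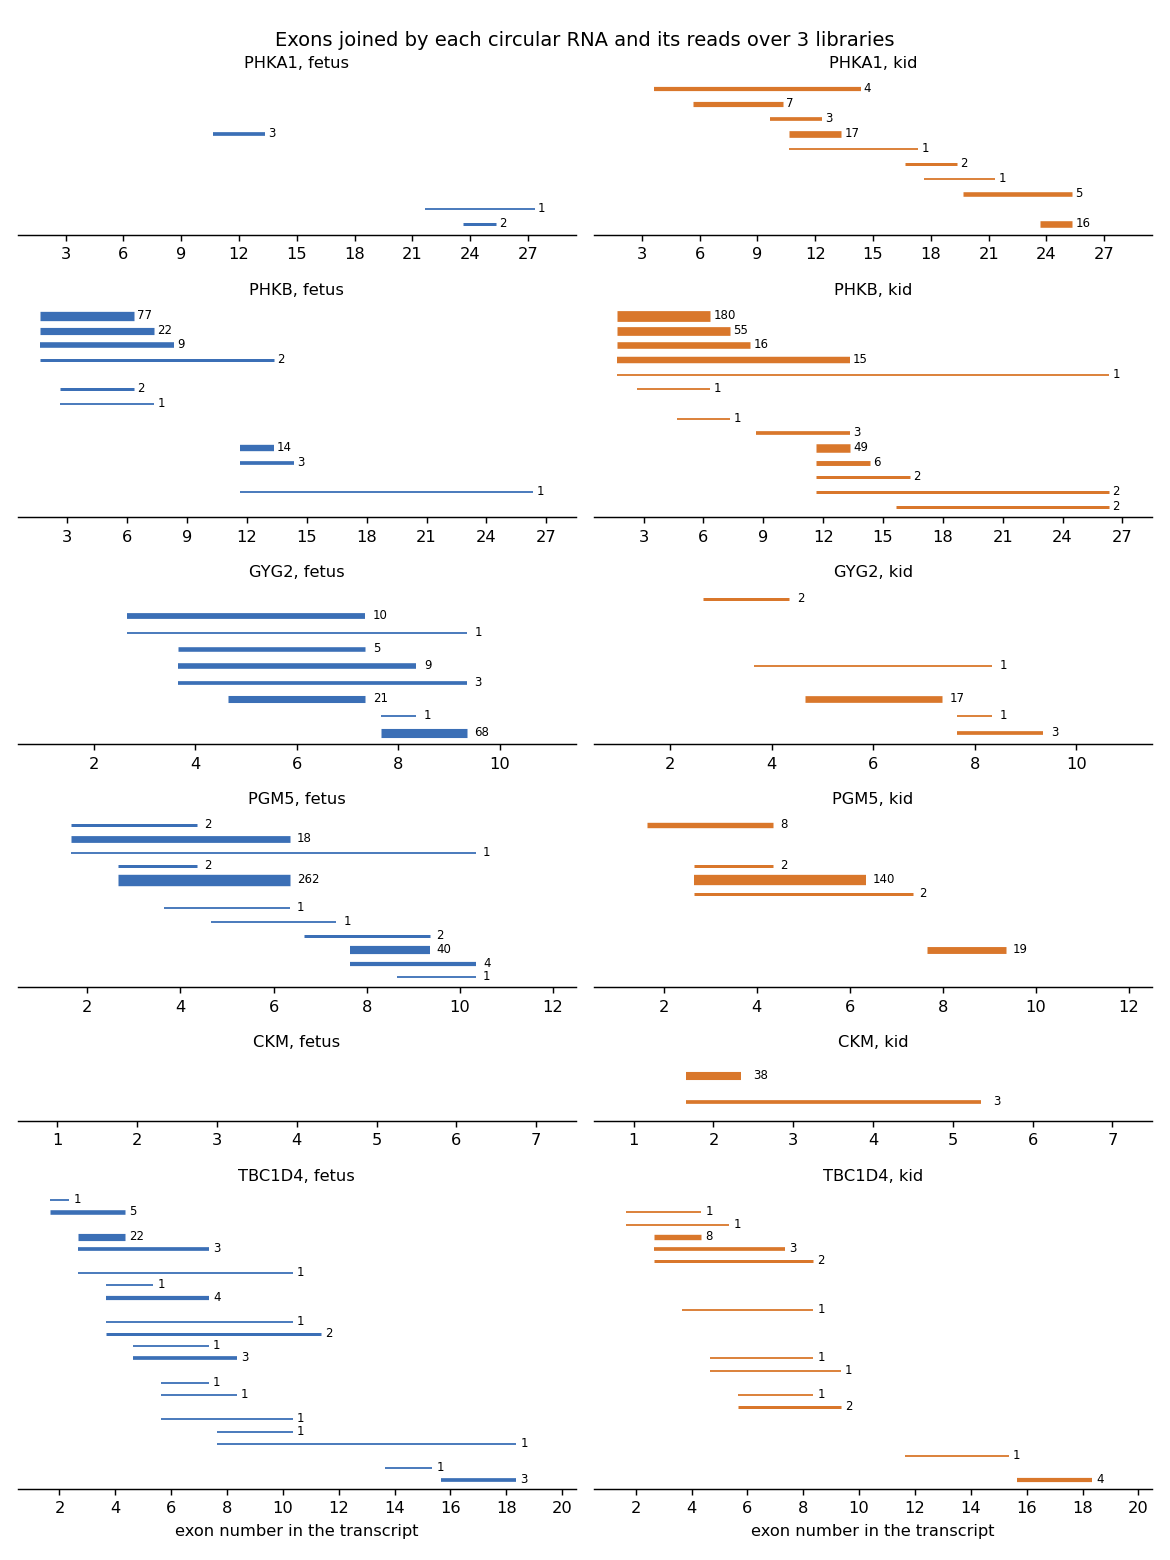
Exons joined by the 71 circRNAs of the 6 genes whose first and last exon are known, with one line per circRNA from first to last exon number (horizontal axis), fetus on the left and kid on the right. The number at each line is its reads over the 3 libraries of the stage and line width grows with the log of the reads. Most PHKB reads lie in circles that start at exon 2 in both stages, and CKM has lines in kid only.

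GYG2 stood on the other side, with far fewer circRNA reads in kid. It encodes glycogenin-2, which in humans is best known from liver, while glycogenin-1 (GYG1, with no reads here) is the main form in muscle. Its 9 circRNAs on chromosome X (minus strand) had 36, 42 and 40 reads in fetus and 16, 2 and 6 in kid. The CPM values were 898, 1167 and 639 in fetus and 222, 54.0 and 86.6 in kid, or 901 ± 264 against 121 ± 89.2. Every fetal library was above every kid library, and kid 1 was the highest of the kid libraries. The log2 fold change was -2.74 ± 0.43 (edgeR adjusted p = 1.17e-04). It was -3.59 without kid 1, and with fetus 3 alone -2.29 ± 0.63, which did not pass (edgeR adjusted p = 0.0620).

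In the main fit the fall of GYG2 was not shared equally by its tested circRNAs, a call lost in several other fits. The circle of exons 8 to 9 (394 bases, chrX:65549200-65552397) had 20, 27 and 21 reads in fetus and 2, 0 and 1 in kid. Its CPM was 510, 740 and 345 in fetus and 28.1, 0 and 14.5 in kid, with a wide gap between the stages. The change was -4.80 ± 0.64 (edgeR adjusted p = 4.94e-04), and -5.48 without kid 1. With only 3 reads in kid, the pooled CPM was 29.7 times higher in fetus, with an exact 95% interval of 9.76 to 148. With fetus 3 alone the change was -4.24 ± 0.83 and did not pass (edgeR adjusted p = 0.0511).

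The neighbouring circle of exons 5 to 7 (287 bases, chrX:65553461-65553986) had 11, 3 and 7 reads in fetus and 14, 1 and 2 in kid. Its CPM of 280, 82.2 and 115 in fetus and 197, 25.7 and 28.9 in kid overlapped because of kid 1, and its change of -0.78 ± 0.79 did not pass (edgeR adjusted p = 0.554). Kid 1 alone held 14 of the 17 kid reads of this circle. Leaving its reads out of the GYG2 sum took the change of the gene to -4.15, an alternative chosen after seeing the data. This circle fell less than the sum, so leaving it out could only make the fall larger and adds no support.

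In the main fit the circRNAs of exons 8 to 9 and 5 to 7 changed by unequal amounts (edgeR diffSpliceDGE adjusted p = 0.0224). Such a call was made for 29 of 374 host genes tested (7.75%). The circle of exons 8 to 9 reached the read filter through the fetal libraries alone, so passing the filter and this call are not separate observations. The call was lost without kid 1 (adjusted p = 0.347), without fetus 2 (0.142), and with entries 1 base apart kept separate (0.0607). As shares of all GYG2 reads, the circle of exons 8 to 9 held 55.6%, 64.3% and 52.5% in the fetal libraries and 12.5%, 0% and 16.7% in the kid libraries. The shares do not overlap, but an exact two-sided permutation test over the 20 splits of 6 libraries gives p = 0.1, the smallest it can give. The kid shares rest on 16, 2 and 6 reads. The circle compared is the one with the most fetal reads, so its share is no separate support.

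A pair of larger GYG2 circles, from exon 3 or 4 onward, also had most of their reads in fetus. That of exons 3 to 7 had 2, 3 and 5 reads in fetus and 0 in every kid library. With 3 reads over the kid libraries taken as the floor, it was 4.37-fold higher in fetus (2.64-fold without kid 1 and 2.69-fold without kid 3). Such a ratio leaves out the counting error of the fetal reads. That of exons 4 to 8 had 2, 3 and 4 reads against 0, 0 and 1. Neither reached the read filter. Kid held 2 reads of a circle of exons 3 to 4 that had none in fetus.

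**Figure D3:**
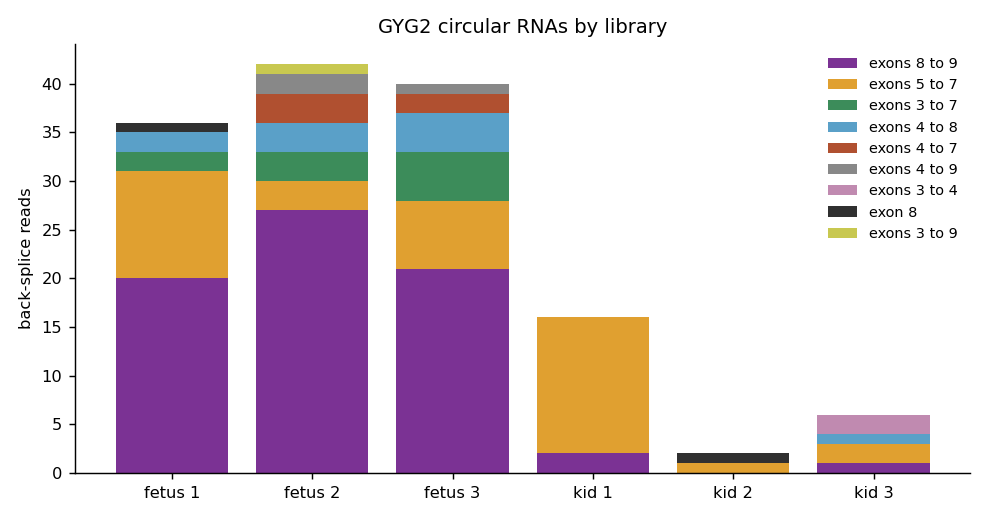
Back-splice reads of the 9 GYG2 circRNAs in each library, stacked, with one colour per circRNA. The fetal bars reach 36 to 42 reads and are led by the circle of exons 8 to 9 (purple), while 14 of the 16 reads of kid 1 come from the circle of exons 5 to 7 (orange).

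PGM5 was lower in kid as well, with the same circle leading in both stages. It belongs to the phosphoglucomutase family by sequence, but it lacks the enzyme's activity and is known as a structural protein of adherens junctions and costameres that binds dystrophin and utrophin. Its 13 circRNAs on chromosome 8 (plus strand) had 99, 80 and 157 reads in fetus and 92, 27 and 52 in kid. The CPM values were 2469, 2223 and 2510 in fetus and 1278, 729 and 751 in kid, or 2401 ± 155 against 919 ± 311. The fetal libraries lay close together, and kid 1 was the highest of the kid libraries, well below fetus 2. The log2 fold change was -1.36 ± 0.25 (edgeR adjusted p = 4.54e-04), and -1.43 ± 0.36 with fetus 3 alone (edgeR adjusted p = 0.0468).

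The PGM5 circle of exons 3 to 6 (619 bases, chr8:44255914-44266821) had 81, 66 and 115 reads in fetus and 76, 22 and 42 in kid, which was 78.0% of the fetal and 81.9% of the kid reads of the gene. Its CPM was 2065, 1809 and 1891 in fetus and 1069, 566 and 607 in kid, with no overlap. The change was -1.34 ± 0.27 (edgeR adjusted p = 0.00594), with valid reads as library sizes -1.27 (adjusted p = 0.0560) and with fetus 3 alone -1.34 ± 0.41 (adjusted p = 0.122). The circle of exons 8 to 9 (320 bases) had 8, 6 and 26 reads against 9, 4 and 6, and its change of -1.36 ± 0.51 did not pass (edgeR adjusted p = 0.0958). It was -0.78 without fetus 3, which holds 26 of its 40 fetal reads. No unequal change between these PGM5 circles was called (edgeR diffSpliceDGE adjusted p = 0.966).

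Circles that began 1 exon earlier, at exon 2, split by their end. The circRNA of exons 2 to 6 (782 bases) had 7, 4 and 7 reads in fetus and 0 in every kid library. That is 7.87-fold higher in fetus with the same floor over the kid libraries, or 4.75-fold without kid 1 and 4.83-fold without kid 3. The counting error of the fetal reads is again left out. The circRNA of exons 2 to 4 (436 bases) had 1, 0 and 1 reads in fetus and 4, 0 and 4 in kid, with a pooled CPM ratio of 3.05 and an exact 95% interval of 0.608 to 29.5 that includes equal levels. Neither passed the filter, so neither was tested here.

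CKM encodes the muscle creatine kinase, the cytosolic enzyme of mature fibres that is held partly at the M line of the sarcomere. It had 0, 0 and 0 circRNA reads in fetus and 13, 12 and 17 in kid, or 181, 324 and 245 CPM, on chromosome 18 (minus strand). With a floor of 3 reads over the fetal libraries together, its circRNA was 10.9-fold higher in kid, leaving out the counting error of the kid reads. A difference between the stages was called (edgeR adjusted p = 5.29e-04). With fetus 3 alone the fitted log2 fold change was 6.89, a value that rests on 0 fetal reads. Since the ratio to the floor rests on how deeply the fetal libraries were sequenced, it was 5.98-fold without fetus 3. Of its 3 circRNAs, the circle of exon 2 alone (214 bases, chr18:54015598-54015811) had 10, 12 and 16 reads, 90.5% of the kid reads. With the same floor this circle was 9.65-fold higher in kid, or 5.35-fold without fetus 3. A difference was called for it with all libraries (edgeR adjusted p = 0.00594). With fetus 3 alone its fitted log2 fold change was 6.73, again from 0 fetal reads. Kid 1 also had 3 reads of a circle of exons 2 to 5, and kid 3 had 1 read of an intronic circRNA.

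TBC1D4, also known as AS160, is a GTPase-activating protein for Rab proteins that keeps vesicles with the glucose transporter inside the cell until insulin signalling phosphorylates it. Its reads were few and scattered over more circRNAs than those of the other 5 genes: 25 circRNAs on chromosome 12 (plus strand), 15 of them with 1 read. It had 14, 11 and 29 reads in fetus and 12, 3 and 11 in kid. The CPM values were 349, 306 and 464 in fetus and 167, 81.0 and 159 in kid, or 373 ± 81.6 against 136 ± 47.4. The lowest fetal library was above the highest kid library. The log2 fold change was -1.40 ± 0.46 (edgeR adjusted p = 0.0379).

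The TBC1D4 call was lost in more of the alternatives than that of any of the other 5 genes. With 1 library left out it passed only without kid 1 (edgeR adjusted p = 0.0492); without fetus 1 to 3 or kid 2 or 3 it did not (0.0544 to 0.150), nor with fetus 3 alone (-1.70 ± 0.58, 0.115). The leading circle, of exons 3 to 4 (195 bases, chr12:35991151-35994951), had 11, 0 and 11 reads in fetus and 3, 0 and 5 in kid. Fetus 2 and kid 2 had none, so the stages overlapped, and its change of -1.82 ± 1.01 did not pass (edgeR adjusted p = 0.260). With its reads left out, an alternative chosen after seeing the data, the gene changed by -1.16 (adjusted p = 0.200). Over all 25, 13 circRNAs were seen in fetus only, 6 in kid only and 6 in both, and those other than exons 3 to 4 had at most 7 reads each.

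Of the 75 circRNAs, 10 passed the filter and 3 passed the test: GYG2 exons 8 to 9 and PGM5 exons 3 to 6 lower in kid, and CKM exon 2 higher. GYG2 exons 8 to 9 reached the filter through the fetal libraries alone and CKM exon 2 through the kid libraries alone. Over all circRNAs, 297 of 1960 passed (15.2%), 181 higher in kid (9.23%) and 116 lower (5.92%). Without TMM that split was 145 higher and 181 lower, and the same 3 of the 10 kept their directions. Fetal and kid CPM values lay apart without overlap for 5 of the 10, against 37.2% of all tested circRNAs. With fetus 3 alone 0 of the 10 passed by edgeR, 5 of them with an unadjusted p under 0.05, and 24 of 1960 passed over all circRNAs. Over all 25500 entries, 198 had q under 0.05 in the authors' deposited table (0.776%). Of the 78 entries, 3 did in the authors' deposited table: GYG2 exons 8 to 9 (log2 of fetus over kid 4.99, q = 1.65e-06), CKM exon 2 (q = 2.33e-04) and PGM5 exons 2 to 6 (q = 0.0272). The authors' deposited table gives PGM5 exons 3 to 6 a log2 of fetus over kid of 1.32 with q = 0.169.

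**Figure D4:**
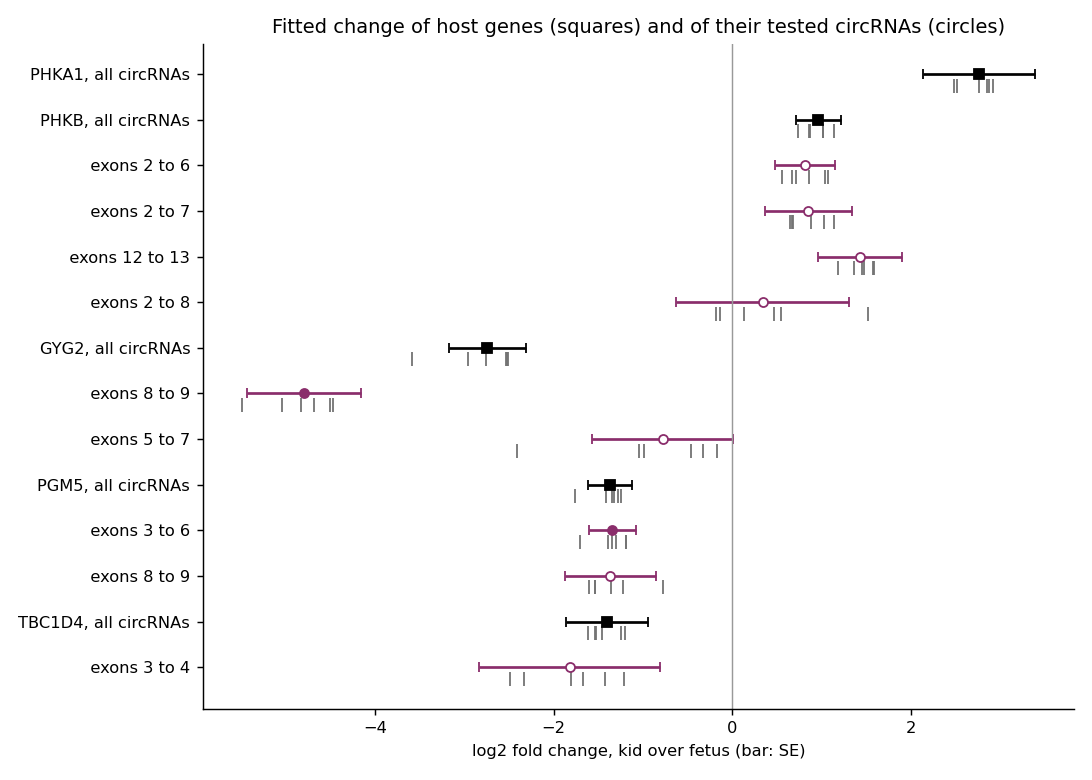
Log2 fold change of kid over fetus for 5 host genes (squares) and 9 of their circRNAs (circles) with SE bars, symbols filled where adjusted p was under 0.05, and tick marks below for the fits that each leave out 1 library. CKM is left out since its fetal libraries hold no reads. GYG2 exons 8 to 9 at -4.80 lies apart from exons 5 to 7 at -0.78, whose tick without kid 1 lies near -2.41.

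Set beside all exonic circles of the series, those of the 6 genes had the following make-up. Of 72 exonic circRNAs, 66 had an exon list in the files and the exons of 5 more were read from matching boundaries. Exon 1 was never the first exon, as in all but 26 of 18724 exonic circRNAs of the series with a list. Exon 2 was the first in 12 of 66 (18.2%), against 23.0% of all. The median number of exons was 4 against 3, the median length 511 against 451 bases, and 34.7% had a single read against 36.2%. These are descriptions with no test.

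In 3 of the circRNAs the reads lay under a pair of entries 1 base apart, one with the gene symbol and one with a gene number. No library had reads in both entries of a pair. For TBC1D4 exons 3 to 4 the 11 reads of fetus 1 stood under the number and those of fetus 3, kid 1 and kid 3 under the symbol. For PHKB exons 2 to 8 only kid 3, with 9 reads, used the symbol. In the whole series 1473 of 1496 such pairs showed the same split, so an entry read alone can be at 0 in a library that holds the circle. With host names as in the files, TBC1D4 changed by -1.15 and did not pass (edgeR adjusted p = 0.259), and GYG2 changed by -3.96.

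**Figure D5:**
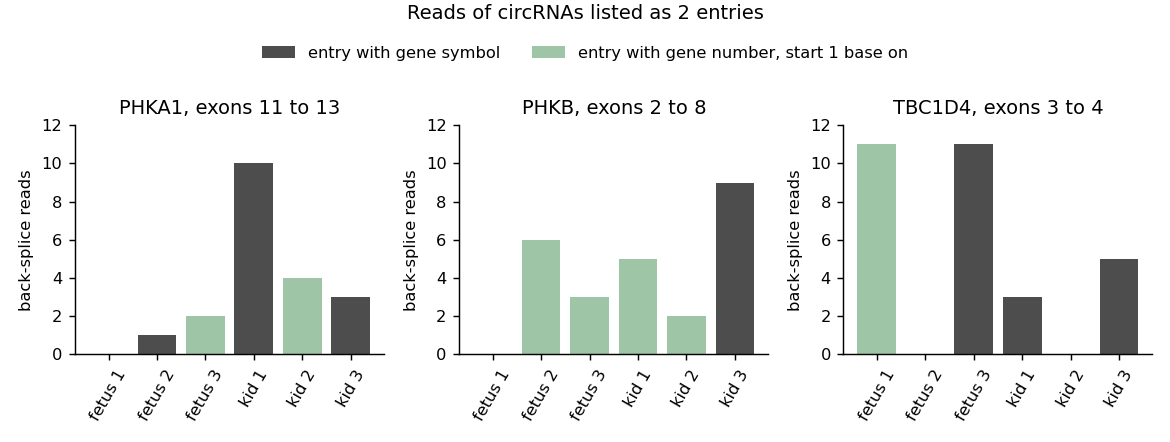
Back-splice reads by library (vertical axis) for the 3 circRNAs listed as 2 entries, coloured by the entry that held them, the one with the gene symbol (dark) or the one with the gene number that starts 1 base on (green). Each bar has a single colour, and which entry is used changes between libraries of one stage.

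Around these genes, most of the glycogen pathway gave few circles. Of 31 listed glycogen genes 16 had reads and 9 were tested. The list counts PGM5 by its family, although PGM5 lacks the enzyme's activity. PHKA1 and PHKB were higher and GYG2 and PGM5 lower, all 4 among the 6 genes described here, and 5 did not pass. The list median was 0.68, beside 0.05 over all tested host genes. Beside this list and those below stand the shares over all tested host genes, 11.9% higher in kid and 7.46% lower. The lists were chosen with earlier results known, so their counts and medians are no evidence of a pathway change. Among those that did not pass were GYS1 (muscle glycogen synthase, 141 ± 17.7 CPM in fetus and 240.0 ± 84.7 in kid), the branching enzyme GBE1, UGP2, which makes UDP-glucose, and the kinase GSK3B. PHKA2, the liver form of the alpha subunit, had 1 read in fetus and 2 in kid. The catalytic phosphorylase kinase genes PHKG1 and PHKG2 had no reads, and phosphorylase PYGM had 0 in fetus and 4 in kid.

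Of 23 genes of creatine and adenylate energy transfer 12 had reads and 5 were tested, with a median of 1.65. CKM and PRKAA2 were higher, and AMPD1, PRKAG2 and PRKAA1 did not pass (edgeR adjusted p = 0.0732, 0.0956 and 0.776). PRKAA2, the alpha 2 catalytic subunit of the energy sensor AMPK, went from 6108 ± 309 to 19126 ± 2410 CPM (1.65 ± 0.16, edgeR adjusted p = 2.54e-07). The mitochondrial creatine kinase gene CKMT2 had 1 read in kid and the brain form CKB 1 read in fetus.

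Of 48 genes of glucose uptake and its insulin control 33 had reads and 15 were tested, with a median of 0.66: INSR and RALGAPA1 were higher, TBC1D4 lower, and 12 did not pass. INSR, the insulin receptor, went from 2156 ± 178 to 4582 ± 425 CPM (1.09 ± 0.19, edgeR adjusted p = 3.16e-04). RALGAPA1, the catalytic subunit of a GTPase-activating complex for Ral proteins, changed by 0.70 ± 0.24 (edgeR adjusted p = 0.0449), and passed in 1 of the 6 fits that leave out a library (0.0449 to 0.184). It did not pass with DESeq2 (adjusted p = 0.136), without TMM (0.209) or with valid reads as library sizes (0.254). The transporter genes SLC2A1 and SLC2A4 had no reads, and TBC1D1, the paralog of TBC1D4 in muscle, had 11 in fetus and 4 in kid, too few to test.

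Of 34 glycolysis genes 16 had reads and 2 were tested, GPI and PDHX. Neither passed (edgeR adjusted p = 0.168 and 0.525), and the median of 1.24 is only the midpoint of these 2. GPI had 0, 2 and 5 reads in fetus and 19, 2 and 9 in kid, and PDHX had 1, 2 and 6 against 4, 7 and 8. Among 10 partners of PGM5 at the membrane, 8 had reads and 3 were tested, with a median of -0.06. Dystrophin, DMD, was higher in kid, from 679 ± 16.9 to 1472 ± 103 CPM (1.11 ± 0.25, edgeR adjusted p = 0.00338, and 0.0620 with valid reads as library sizes), opposite in direction to PGM5. Utrophin (UTRN, -0.36 ± 0.31) and talin 2 (TLN2, -0.06 ± 0.40) did not pass, and XIRP1 and XIRP2 had no reads.

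PHKA1 and GYG2 both lie on chromosome X and moved in opposite directions. Of 38 tested host genes on X, 7 were higher in kid and 4 lower, with a median of 0.14. Over all tested host genes 11.9% were higher and 7.46% lower, with a median of 0.05. X held 1.49% to 1.70% of the exonic and intronic back-splice reads in fetus and 1.43% to 1.56% in kid. The labels give no sex, and its part in these results was not tested.

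The genes with the most similar pattern were found as the smallest Euclidean distance between log2 CPM values centred on each gene's own mean, over 6 libraries and 1687 tested host genes with a usable symbol. For PHKA1 they were FAM160A1 (distance 0.410, median of all 2.77) and NRAP (0.416). NRAP had 3, 4 and 3 reads in fetus and 38, 13 and 28 in kid. For PHKB they were RABGAP1 (0.234, median 1.83) and PKNOX2 (0.311), and for GYG2 PLCE1 (0.715, median 3.68) and DCLK1 (0.726). PGM5 was nearest to SLC4A4 (0.368, median 2.18) and LAMB1 (0.454), and TBC1D4 to LAMB1 (0.482, median 2.09) and DNM1L (0.492). LAMB1 thus stood near both, with 16, 10 and 25 reads in fetus and 13, 4 and 9 in kid. CKM was not ranked because its fetal libraries hold no reads.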

How the data were processed

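Libraries were grouped by sample title. Per the submitters' processing notes, cutadapt, FastQC and TopHat were used. Not given in the sources used here are the program that called the circRNAs, its build and its annotation. The authors deposited raw and valid read counts and percent values per library, counts of back-splice reads per circRNA, a normalized signal (SRPBM, not tested here) and a log2 ratio of fetus to kid with its p-value and q-value, per the file headers. Which test gave the p-values is not stated. The 2 deposited count tables differ at 38 entries, 0 of them in the genes described.

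All 4563 entries under a gene number found a symbol by that number in RefSeq's gene table (ARS1.2), and chromosome names come from that table. Reads of exonic and intronic circRNAs were summed per host gene. In the whole list 1496 pairs of entries 1 base apart were added together, beside 10 longer runs. Counts were tested in R 4.3.3 with edgeR 4.0.16 (glmQLFit with robust settings, glmQLFTest, stage as the only term, TMM, total back-splice reads as library size) on all features that reached 5 reads in 3 libraries or more. The common biological variation (coefficient) came to 0.275 over host genes and to 0.318 over circRNAs. The SE is the log2 fold change over the square root of F. Unequal change was tested with diffSpliceDGE. The steps were tested on simulated counts. In the shallowest library 3 reads are 83.4 CPM for host genes and 82.2 CPM for circRNAs. Exact (Clopper-Pearson) 95% intervals cover counting error only, because PCR copies are not independent molecules. Ratios to a floor of 3 reads leave out the counting error of the stage that has reads. Permutation was run with scipy 1.17.1.

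Alternatives were other scalings, DESeq2 1.42.0, no or a stricter filter (10 reads), the replicate number as a block, the other count table, exonic circRNAs only, file names of hosts, entries kept separate, and leaving out libraries on the same tested features. Named are the 6 genes, each of their circRNAs past the filter (failing that, the most read), list genes past the test (failing that, the 2 most read), and the 2 most similar host genes. Other circRNAs and list genes with few reads were chosen after their values were seen. The genes, lists and rules were chosen with earlier results of these data known. A result for 1 list gene is not reported here.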

Additional observations from a re-analysis of the deposited data

How the results depend on the processing

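PGM5 and CKM passed the test in every alternative run. The exceptions among the other host genes were PHKA1 with fetus 3 alone (log2 fold change 3.20, edgeR adjusted p = 0.0563), GYG2 with fetus 3 alone (-2.29, 0.0620) and PHKB without TMM (0.70, 0.0579), with valid reads as library sizes (0.95, 0.104) and without fetus 3 (0.74 of a leave-one-out range up to 1.14). TBC1D4 did not pass with valid reads (-1.38, 0.124), DESeq2 (-1.48, 0.0968), no read filter (-1.36, 0.132), fetus 3 alone (-1.70, 0.115), host names as in the files (-1.15, 0.259), without the circRNA of exons 3 to 4 (-1.16, 0.200), or in 5 of 6 leave-one-out fits, which ranged from -1.62 to -1.20. The cause was not tested. The total of host genes called was 340, against 200 with valid reads, 85 with fetus 3 alone (fewer samples) and 221 to 285 with 1 library left out. The total of circRNAs called was 297, against 24 with fetus 3 alone and 187 to 251 with 1 library left out. Which features were shared was not counted. For the 10 tested circRNAs of the 6 genes the count of 3 became 0 with fetus 3 alone (edgeR, 5 at an unadjusted p under 0.05) and 2 with valid reads. Unequal change was called for 29 host genes, 16 with the stricter filter (fewer genes tested) and 8 to 26 with 1 library left out. The circRNA of PHKB exons 2 to 8 ranged from -0.19 to 1.52 with 1 library left out, with the direction reversed without fetus 1 (-0.19) and without kid 3 (-0.13). Joining all entries by gene number, chosen after seeing the data, adds 1 intronic PHKB entry that reaches beyond the named span (2 reads in fetus 1) and leaves PHKB called (0.94, edgeR adjusted p = 0.0129).

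The labels give no pairing of libraries by replicate number. Deviations of host genes from the stage means correlated at 0.01, 0.03 and -0.04 between libraries of the same number. Between libraries of different number the values were -0.06 to 0.05. With 3 libraries per stage these values cannot decide whether the numbers pair the libraries. With the number as a replicate block all 6 host genes passed (edgeR adjusted p = 1.34e-05 to 0.0460), 313 host genes, 228 circRNAs and 3 circRNAs of the 6 genes were called, and unequal change was called for 13 host genes and not for GYG2 (adjusted p = 0.0646). Depth limits the genes with few reads: PHKA1 had 6 and CKM 0 over the fetal libraries, and GYG2 24 and TBC1D4 26 over the kid libraries.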
